A study of Mus musculus with 10 samples.

Results

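The genes described here encode the subunits of oxidative phosphorylation, the respiratory chain and ATP synthase of the mitochondrial inner membrane, in hippocampal bulk RNA-seq. Members were chosen by gene symbol: Nduf, Sdh, Uqcr, Cox and Atp5 genes for complexes I to V in the nuclear genome, and the mt-Nd, mt-Co, mt-Cytb and mt-Atp genes in the mitochondrial genome. Of 106 rows that matched, 7 with a -ps suffix and 5 with under 100 counts over the 10 libraries were dropped. The remaining 94 genes, of 56884 in the count table, comprised 11 mitochondrial-encoded and 83 nuclear-encoded genes. By complex there were 42 members of complex I, 4 of complex II, 9 of complex III, 21 of complex IV and 18 of complex V, with Ndufa4 counted under complex IV. All 94 passed the expression filter that left 17622 genes to be tested.

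The 10 mice were ovary-intact females of the P301S (PS19) line on a B6;C3 background, which carries human mutant Tau under the mouse Prnp promoter. Every mouse carried the transgene, so no comparison with non-transgenic animals was possible. At 6 months of age 5 mice received a void implant and 5 a 10-mm implant packed with DHT, an androgen that aromatase cannot convert to estrogen. After 12 weeks, at 9 to 9.5 months, hippocampal RNA was taken, with 1 library per mouse. The study used several cohorts of mice and the labels do not tie libraries to a cohort or litter, so no such term could be fitted. The library numbers in the labels run from 4 to 11 in void and from 18 to 23 in DHT mice. What this order stands for is not given, and any effect of it cannot be told apart from treatment. The question was whether DHT exposure changed transcript levels of the OXPHOS machinery.

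Complex I oxidizes NADH and complex II oxidizes succinate, and both pass electrons through ubiquinone to complex III. Cytochrome c then carries the electrons to complex IV (cytochrome c oxidase), which reduces oxygen, and complex V uses the proton gradient to make ATP. Complexes I, III, IV and V are built from subunits of both genomes, while complex II is entirely nuclear-encoded, and neurons depend heavily on this machinery to sustain ion gradients and synaptic transmission.

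Total counts ranged from 27188854 to 47113661 in void mice and from 33523527 to 45947784 in DHT mice (exact permutation test, two-sided p = 0.365, n = 5 and 5). Markers of other cells moved with treatment. Of 12 microglial markers, 10 were called higher in DHT mice, and 5 of 12 choroid plexus markers and 2 of 8 ependymal markers were called higher. Of 8 astrocyte markers 1 was called higher, Gfap (1.18, SE 0.19, adjusted p = 0.00761). None of 8 oligodendrocyte markers was called, but all 8 were positive with a median log2 fold change of 0.22, and 4 were higher at an unadjusted p under 0.05. The summed choroid plexus level was 120 to 1905 CPM (counts scaled to a common library total) in void mice and 2207 to 3138 in DHT mice, with no marker at 0. The 12 neuron markers summed to 7843 to 8706 CPM in void and 6851 to 7797 in DHT mice. These sums lay close but did not overlap, whereas each marker taken singly overlapped between the groups. None of the markers was called (0 higher and 2 lower at an unadjusted p under 0.05). All 12 had negative log2 fold changes, with a median of -0.10. The scaling on neuron genes used below rests on these 12 genes. In bulk tissue, fewer cells of a type and less RNA per cell cannot be told apart.

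One OXPHOS gene of 94 rose with DHT and none fell, at an adjusted p under 0.05 (edgeR quasi-likelihood test, adjusted over all genes tested). Over all 17622 genes, 5.22% were called higher and 0.261% lower. With a log2 fold change beyond 1 required as well, Cox6b2 was still called, and the shares of all genes were 2.17% and 0.0227%. The gene that rose was Cox6b2, a complex IV isoform known mainly from testis, and no mitochondrial-encoded gene was called. The members' fold changes were small, with 89 of the 94 within 0.25 of 0 on the log2 scale, and the median standard error was 0.08. The nuclear and mitochondrial genes lay on opposite sides of 0: the median log2 fold change was 0.08 for the 83 nuclear genes and -0.10 for the 11 mitochondrial genes, beside 0.01 for all genes tested. The count of members called higher changed with the setting. With scaling on neuron genes it was 17, all nuclear, and 1954 genes were called higher in all. A choroid plexus covariate gave 0, and leaving out 1 mouse gave 0 to 4. In the main fit 74 of the nuclear genes had a positive fold change, as did 1 of the 11 mitochondrial genes and 52.4% of all genes. Relative to the median of all genes, the mitochondrial median was -0.11. With scaling on neuron genes, which raised the median of all genes from 0.01 to 0.15, it was -0.09. With a choroid plexus covariate it was 0.27. With 1 mouse left out it ranged from -0.19 (without void mouse 9) to -0.03 (without void mouse 5).

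**Figure D1:**
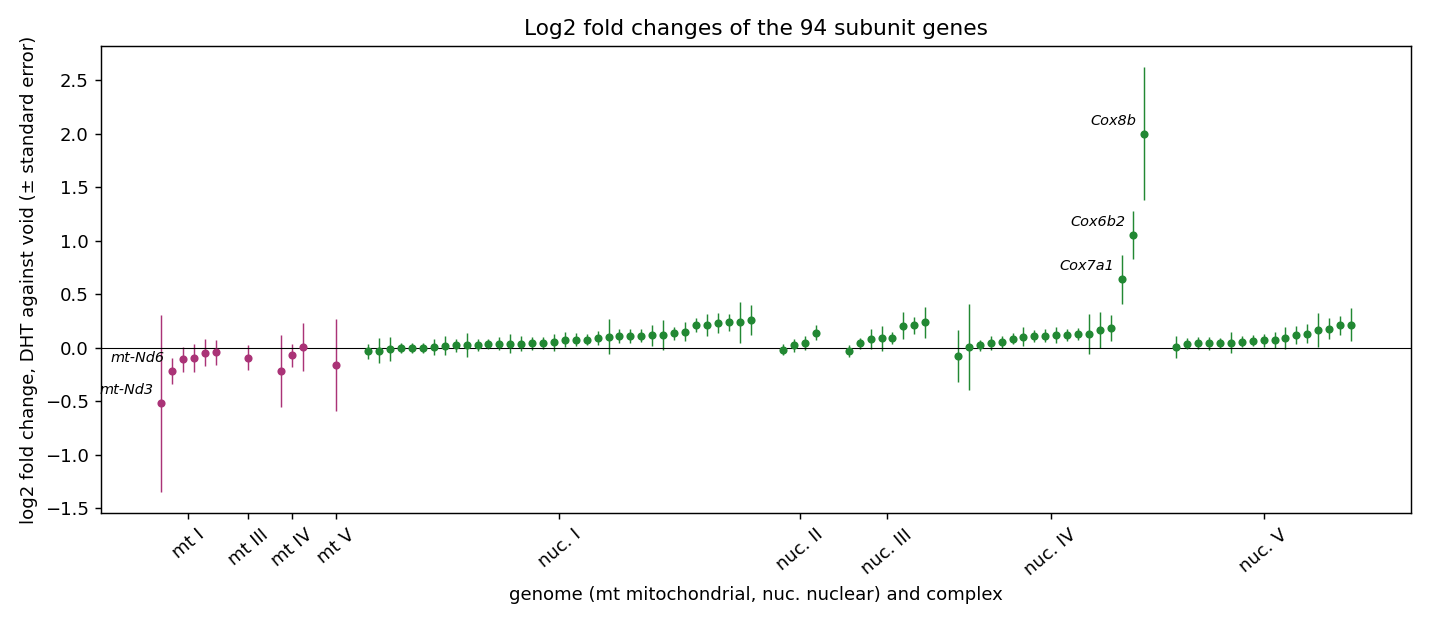
Log2 fold change of DHT against void (y axis, bars are ± 1 standard error) for the 94 subunit genes, grouped along the x axis by genome and complex and sorted by fold change within each group (magenta mitochondrial, green nuclear). Most nuclear genes sit just above 0 and most mitochondrial genes just below, and Cox7a1, Cox6b2 and Cox8b stand highest at 0.64, 1.05 and 2.0.

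The mitochondrial-encoded members are subunits of complexes I, III, IV and V. They fell into 2 count classes that did not overlap: mt-Nd1, mt-Nd2, mt-Nd4, mt-Nd5, mt-Nd6, mt-Cytb and mt-Co1 had 50009 to 1364998 counts over the 10 mice, whereas mt-Co2, mt-Co3, mt-Nd3 and mt-Atp6 had 142 to 205. The dropped mt-Atp8 and mt-Nd4l had 26 and 22. In genome order the 6 poorly counted genes are neighbours, from mt-Co2 to mt-Nd4l. Per kilobase of exon, the void mean was 2513 CPM for mt-Co1 and 288 CPM for mt-Nd6, against 0.598 to 1.46 CPM for the 4 poorly counted members. As background, these genes are transcribed from the same strand as most of their well-counted neighbours, and their low values are given here as counts only.

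A search of annotated mouse transcripts (GENCODE M21) found near-identical copies of several mitochondrial genes on nuclear chromosome 1, and less similar copies on other chromosomes. The copies were 100% identical over 681 bases of mt-Co2 (Gm28661), 678 of mt-Atp6 (Gm10925), 783 of mt-Co3 (Gm28437) and 294 of mt-Nd4l (Gm10222). Copies of the first 876 bases of mt-Nd4 (Gm28439) and of 483 bases of mt-Co1 (Gm29216) were 100% and 99.8% identical. On chromosome 2, full-length copies of mt-Co2 (Gm13341, 470 counts) and mt-Co1 (Gm13340, 550 counts) were 95.9% and 97.6% identical. Copies of mt-Nd2, mt-Nd5, mt-Nd6 and mt-Cytb also lay outside chromosome 1, at 92.4 to 96.7% identity. No annotated copy of at least 100 bases and 90% identity was found for mt-Atp8. Only annotated transcripts were searched, so this cannot show whether the nuclear genome holds a copy of that gene. How reads matching several places were counted is not given in the sources used here. Counts of these genes are uncertain, and the part of the copies in the low values was not tested.

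The copy of mt-Nd3, Gm28438, differs from it at 1 of the 345 bases compared, T3C, counted from 1 at the 5′ end of mt-Nd3 with its base first. The first 30 bases of both are shown because the annotated sequences differ at that position only, which is in capitals. Whether the mice carry the annotated bases was not tested, so the genome of origin of the reads counted for either gene is uncertain. In GRCm38, mt-Nd3 is at chrM:9459-9806 on the plus strand and Gm28438 at chr1:24612775-24613119 on the minus strand.
mt-Nd3: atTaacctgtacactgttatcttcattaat
Gm28438: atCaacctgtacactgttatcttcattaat

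The raw mt-Nd3 counts in void mice 10, 11, 4, 5 and 9 were 13, 30, 46, 4 and 2, and in DHT mice 1, 2, 3, 5 and 6 they were 27, 34, 9, 1 and 0. Gm28438 had 2, 10, 7, 681 and 427 counts in the same void mice and 6, 8, 1029, 612 and 578 in the same DHT mice. Void mice 5 and 9 and DHT mice 3, 5 and 6 had few mt-Nd3 counts and many Gm28438 counts, and the other 5 mice the reverse. This division of the mice cut across the treatment groups. The log2 fold change of mt-Nd3 was -0.52 with a standard error of 0.83 (adjusted p = 0.830), and that of Gm28438 was 0.70 with a standard error of 1.29 (adjusted p = 0.864). Gm28661, the copy of mt-Co2 with no mismatch, had 12 to 60 counts in those 5 mice and 13 to 56 in the others.

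**Figure D2:**
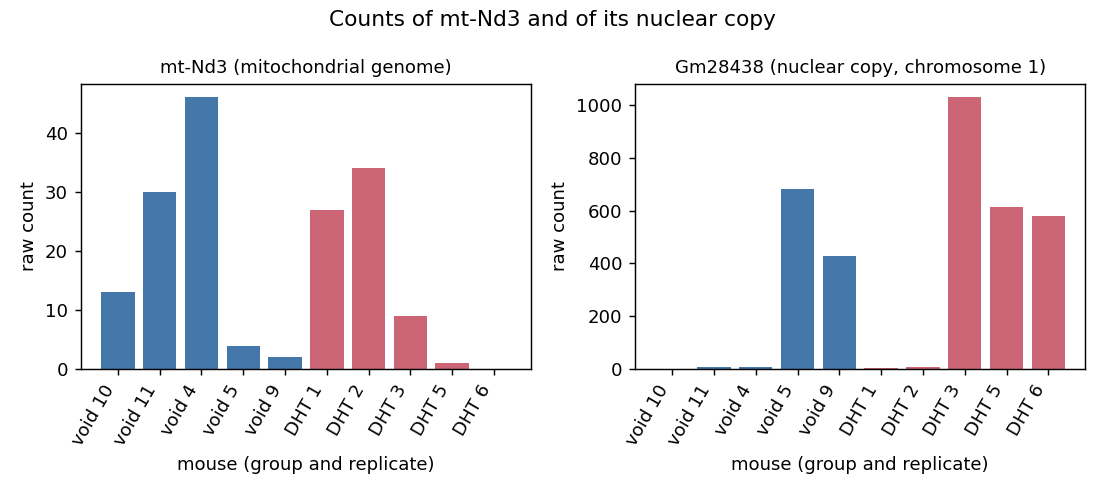
Raw counts (y axis) of mt-Nd3 (left) and its nuclear copy Gm28438 (right) in each mouse (x axis; blue void, red DHT, 1 bar per mouse). Void 5, void 9, DHT 3, DHT 5 and DHT 6 have 427 to 1029 Gm28438 counts and at most 9 mt-Nd3 counts.

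**Figure D3:**
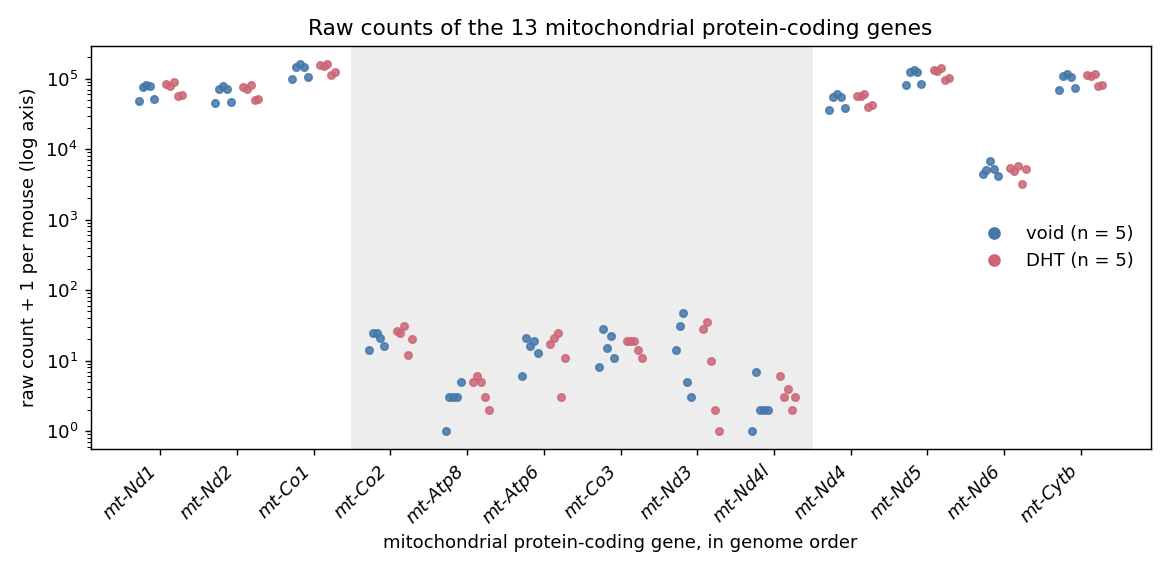
Raw count plus 1 on a log axis for each mitochondrial protein-coding gene in genome order, with 1 point per mouse (blue void, red DHT, n = 5 each). The shaded stretch from mt-Co2 to mt-Nd4l holds at most 46 counts in any mouse, while the other 7 genes hold at least 3184.

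Among the 7 well-counted mitochondrial genes, mt-Co1, the catalytic subunit of complex IV, had the highest level. Its CPM was 3675, 4325, 3377, 4710 and 3324 in void mice 10, 11, 4, 5 and 9, and 4276, 3744, 3351, 3372 and 3746 in DHT mice 1, 2, 3, 5 and 6. Void mice 11 and 5 and DHT mouse 1 were high, and the groups overlapped. The means were 3882 ± 611 and 3698 ± 376 (SD, n = 5 each), with a log2 fold change of -0.07 (SE 0.11, adjusted p = 0.823).

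The complex III gene mt-Cytb, which carries the haem groups of cytochrome b, had 2264 to 3376 CPM in void and 2374 to 3086 in DHT mice (-0.09, SE 0.12, adjusted p = 0.767). The complex I genes mt-Nd1, mt-Nd2, mt-Nd4 and mt-Nd5 encode membrane-arm subunits that take part in proton pumping, and the same mice were high in each. Their log2 fold changes were -0.05, -0.10, -0.11 and -0.04, with standard errors of 0.12 to 0.13 and adjusted p values of 0.714 to 0.913. None of these differences was larger than the spread between mice.

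The gene mt-Nd6 is the one protein-coding gene on the other, light strand. Its CPM was 161, 150, 143, 167 and 127 in the void mice and 145, 123, 122, 95.3 and 156 in the DHT mice, in the order above. DHT mouse 5 was the lowest and the groups overlapped. The log2 fold change was -0.22 (SE 0.12), the farthest from 0 of the 7, with an unadjusted p of 0.0909 and an adjusted p of 0.397. Its exon overlaps that of mt-Nd5 by 14 bases on the opposite strand.

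All 7 well-counted mitochondrial genes thus had negative log2 fold changes, from -0.22 to -0.04, and none passed the test. With scaling on 12 neuron genes the median of all genes moved from 0.01 to 0.15. The values for mt-Co1, mt-Cytb, mt-Nd1, mt-Nd2, mt-Nd4 and mt-Nd5 then became 0.08, 0.06, 0.11, 0.06, 0.04 and 0.11, all below 0.15. With a choroid plexus covariate they were 0.25, 0.28, 0.34, 0.28, 0.26 and 0.36, and no gene of the 17622 was called in that fit. Without void mouse 5, mt-Co1, mt-Nd1 and mt-Nd5 were at 0.01, 0.05 and 0.04. For mt-Nd6 the sign was negative in every alternative run. The mitochondrial ribosomal RNAs mt-Rnr1 and mt-Rnr2, which are no members, had log2 fold changes of -0.09 and -0.08 (adjusted p = 0.828 and 0.850).

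As a share of all counts, the 11 mitochondrial genes held 1.42, 1.73, 1.35, 1.89 and 1.23% in void mice 10, 11, 4, 5 and 9. In DHT mice 1, 2, 3, 5 and 6 they held 1.72, 1.48, 1.43, 1.304 and 1.34%. The groups overlapped almost fully, with means of 1.52 ± 0.276% and 1.46 ± 0.165% (SD, n = 5 each). The difference in means, -0.0673 percentage points, was 0.0243 without void mouse 5. The 83 nuclear genes held 0.683, 0.678, 0.673, 0.711 and 0.727% in the void mice and 0.709, 0.720, 0.698, 0.800 and 0.736% in the DHT mice. Their means were 0.694 ± 0.0236% and 0.733 ± 0.0399%, and void mice 5 and 9 lay within the DHT range. The ratio of mitochondrial to nuclear counts was 2.20 ± 0.403 in void and 1.998 ± 0.299 in DHT mice, again overlapping.

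Some mice of both groups had a high nuclear and a low mitochondrial level, and others did not. Mean log2 levels relative to the void mean were taken over 77 nuclear members, without the 6 restricted isoforms, and over the 7 well-counted mitochondrial members. The nuclear mean was highest in DHT mice 5 (0.23) and 6 (0.13) and void mouse 9 (0.11). In the same mice the mitochondrial mean was -0.27, -0.12 and -0.27. Void mouse 4 and DHT mouse 3 were low in both, with mitochondrial means of -0.15 and -0.15 and nuclear means of -0.06 and -0.04. Void mouse 5 had the highest mitochondrial mean, 0.29, and a nuclear mean of -0.00. No test was made on these means, since the members were chosen as a list.

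**Figure D4:**
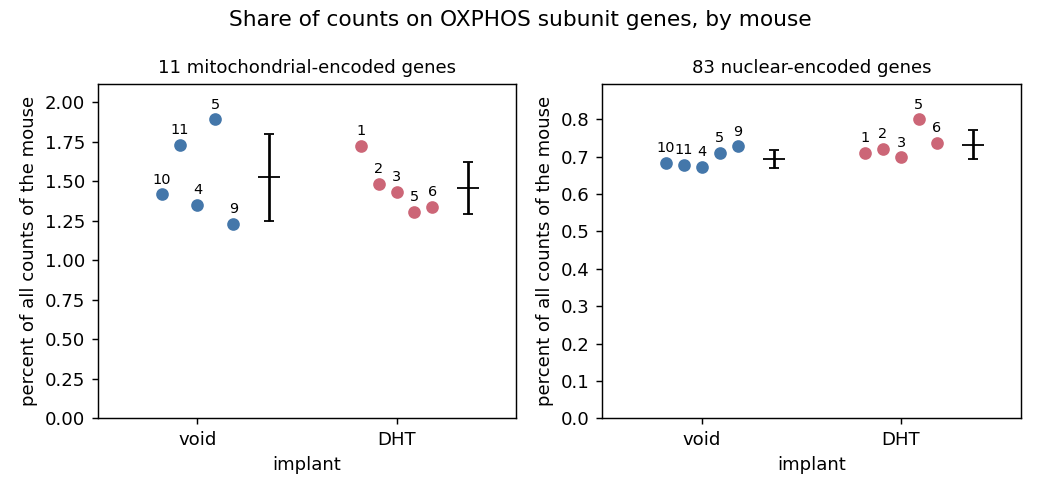
Percent of each mouse's counts (y axis) on the 11 mitochondrial-encoded (left) and 83 nuclear-encoded (right) OXPHOS genes, with the mouse number above each point and the mean ± SD (n = 5) beside each implant group (x axis). The mitochondrial share spans 1.23 to 1.89% in void and 1.304 to 1.72% in DHT mice, and DHT mouse 5 has the highest nuclear share at 0.800%.

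The nuclear members' median differed little between complexes: 0.06 for 36 genes of complex I, 0.03 for 4 of complex II, 0.09 for 8 of complex III, 0.12 for 18 of complex IV and 0.07 for 17 of complex V. At an unadjusted p under 0.05, 9 nuclear members were higher and none lower, against 13.1% and 4.22% of all genes. The members' share of higher genes was thus near the background. Without DHT mouse 5 the nuclear median was 0.01 and 45 of the 83 genes were positive, beside a median of -0.03 for all genes. A shift of this size was also present among all short protein-coding genes, a set that includes the members. Of all tested protein-coding genes with under 1 kb of exon, 79.8% of 272 had a positive fold change, with a median of 0.13. The 22 nuclear members of that length had a median of 0.12. For genes of 1 to 2 kb the medians were 0.08 for all genes and 0.11 for the 31 members, for 2 to 4 kb they were 0.04 and 0.03 for 19 members, and above 4 kb they were -0.01 and 0.04 for 11 members. The part of transcript length in the nuclear shift was not tested further.

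In complex I, Ndufs1 and Ndufv1 carry iron-sulfur clusters and the NADH-binding flavin, and Ndufa9 stabilizes the junction between the arms. Ndufs1 had 152 to 170 CPM in void and 148 to 166 in DHT mice, and its log2 fold change was -0.00 (SE 0.05, adjusted p = 0.991). The values for Ndufv1 and Ndufa9 were 0.04 (SE 0.09, adjusted p = 0.899) and -0.00 (SE 0.05, adjusted p = 0.988). Ndufv1 was 123 CPM in void mouse 9 and 133 and 124 CPM in DHT mice 5 and 6, and 98.3 to 108 in the other 7.

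The highest complex I members by unadjusted p were accessory subunits, named after their values were seen. Ndufv3, a small subunit of the NADH-binding module, had CPM of 43.7, 45.3, 43.7, 44.8 and 47.0 in the void mice and 51.2, 50.7, 45.7, 58.5 and 53.6 in the DHT mice. Only DHT mouse 3 fell within the void range. The log2 fold change was 0.21 (SE 0.07, adjusted p = 0.0963). Ndufa1, an X-linked accessory subunit, gave 0.24 (SE 0.08, adjusted p = 0.108), X-linked Ndufb11 gave 0.23 (SE 0.09, adjusted p = 0.221) and Ndufc2 gave 0.13 (SE 0.06, adjusted p = 0.283). At the other end was Ndufb3, with 40.5 to 48.3 CPM in void and 39.0 to 49.6 in DHT mice (-0.03, SE 0.07, adjusted p = 0.884).

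In complex II, the flavoprotein gene Sdha had 358 to 397 CPM in void and 365 to 387 in DHT mice, means of 379 ± 14.7 and 374 ± 10.2 (-0.02, SE 0.05, adjusted p = 0.909). The iron-sulfur subunit gene Sdhb gave 0.04 (SE 0.06, adjusted p = 0.815). In complex III, the core gene Uqcrc1 had 124 to 159 CPM in void and 122 to 174 in DHT mice (0.09, SE 0.12, adjusted p = 0.789), again with void mouse 9 and DHT mice 5 and 6 on top. The other core gene, Uqcrc2, was at -0.03 (SE 0.06, adjusted p = 0.857), and Uqcrfs1, the Rieske iron-sulfur protein, at 0.04 (SE 0.05, adjusted p = 0.767). The small subunit gene Uqcr10 had the lowest p of the complex, at 0.21 (SE 0.08, adjusted p = 0.174).

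In complex V, the catalytic genes Atp5a1 and Atp5b encode the alpha and beta subunits. Atp5b had 729, 726, 704, 762 and 767 CPM in the void mice and 727, 749, 697, 822 and 797 in the DHT mice. DHT mice 5 and 6 were the highest, and the other 3 lay within or below the void range. The log2 fold changes were 0.04 for both Atp5b (SE 0.06, adjusted p = 0.807) and Atp5a1 (SE 0.06, adjusted p = 0.814). All 17 nuclear members of this complex were above 0, from 0.01 to 0.21, and none was called. The lowest p belonged to Atp5e, the epsilon subunit (0.21, SE 0.09, adjusted p = 0.232). The list holds genes by name, and Atp5s, at 0.01, is a coupling factor rather than a structural subunit.

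Complex IV had the widest range of fold changes among the nuclear members, from -0.08 to 2.0. Several of its small nuclear subunits exist as pairs of isoforms, 1 found in most tissues and 1 restricted mainly to heart and skeletal muscle, lung or testis. The broadly expressed members did not pass the test. Cox4i1 had 195 to 230 CPM in void and 202 to 266 in DHT mice (0.12, SE 0.07, adjusted p = 0.476). Cox5a and Cox6c were at 0.02 (SE 0.05, adjusted p = 0.909) and 0.05 (SE 0.06, adjusted p = 0.728). Per kilobase, these subunits and their partners had void means from 27.3 (Cox6c) to 187 CPM (Cox8a), while the 6 restricted isoforms had 0.698 to 2.46 CPM.

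Cox6b2, the testis isoform of the subunit that faces the intermembrane space, had CPM of 1.25, 1.11, 2.01, 1.66 and 2.82 in void mice 10, 11, 4, 5 and 9. In DHT mice 1, 2, 3, 5 and 6 it had 4.54, 3.38, 3.44, 3.47 and 3.66. Every DHT mouse lay above every void mouse, as held for 2 of the 94 members and for 5.39% of all genes. The reverse, every DHT mouse below, held for no member and for 0.88% of all genes. The means of the void and DHT mice were 1.77 ± 0.686 and 3.70 ± 0.481 (SD, n = 5 each). The log2 fold change was 1.05 (SE 0.23, adjusted p = 0.0197). The adjusted p rose above 0.05 without void mouse 10 (0.0522), void mouse 11 (0.0559) or DHT mouse 1 (0.0651). Its broadly expressed counterpart, Cox6b1, had 100 to 113 CPM in void and 109 to 130 in DHT mice, a log2 fold change of 0.11 (SE 0.06, adjusted p = 0.403).

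Cox8b, the heart and muscle isoform of a small membrane subunit, had 0.148, 0.210, 0.951, 0.288 and 2.82 CPM in the void mice and 5.33, 3.28, 1.89, 2.90 and 4.59 in the DHT mice. Void mouse 9 lay within the DHT range and the other 4 void mice below it. The log2 fold change, 2.0 (SE 0.62), was the largest of all members but was not called (adjusted p = 0.0922). Without void mouse 9 it was 3.04 and the adjusted p 0.00433. Its counterpart Cox8a had 94.4 to 141 CPM in void and 94.01 to 173 in DHT mice (0.16, SE 0.16, adjusted p = 0.698).

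Cox7a1, another heart and muscle isoform, had 0.922, 0.389, 0.909, 0.799 and 1.05 CPM in the void mice and 1.07, 1.31, 1.24, 1.41 and 1.34 in the DHT mice. All DHT mice lay above all void mice, although the nearest pair differed little, at 1.05 and 1.07 CPM. The log2 fold change was 0.64 (SE 0.23, adjusted p = 0.145). The other restricted isoforms showed no such pattern. Cox4i2, a lung and hypoxia-responsive isoform, was at 0.13 (SE 0.19, adjusted p = 0.812), the muscle isoform Cox6a2 at -0.08 (SE 0.24, adjusted p = 0.923) and the testis isoform Cox7b2 at 0.01 (SE 0.40, adjusted p = 0.996). Another testis isoform, Cox8c, had no count in any mouse.

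Markers of the choroid plexus moved with these isoforms. Ttr, the transthyretin gene that this epithelium expresses strongly, had 329, 62.5, 670, 65.1 and 1335 CPM in void mice 10, 11, 4, 5 and 9. In DHT mice 1, 2, 3, 5 and 6 it had 1728, 1342, 1289, 1569 and 1665 CPM. As for Cox8b and Cox6b2, void mouse 9 was the highest void mouse and DHT mouse 1 the highest DHT mouse. Ttr itself was not called (1.63, SE 0.68, adjusted p = 0.237). These mice were also the highest of their groups in both called ependymal markers, Cfap126 and Rsph1, but not both in any other ependymal marker. With the choroid plexus level as a covariate, the log2 fold changes fell to 0.34 for Cox6b2 (adjusted p = 0.894) and 0.03 for Cox8b (adjusted p = 0.998). The summed choroid plexus level separates the groups, so treatment and choroid plexus level cannot be told apart in this fit.

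**Figure D5:**
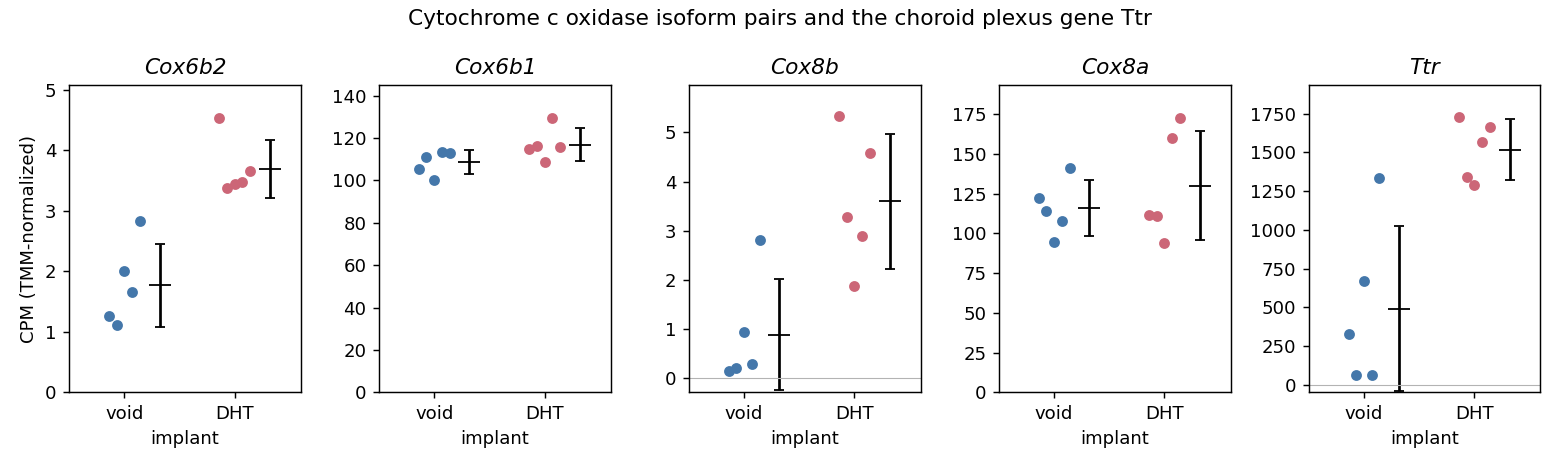
TMM-normalized CPM (y axis, separate scale per panel) of Cox6b2, Cox6b1, Cox8b, Cox8a and Ttr by implant group (x axis), with 1 point per mouse and the mean ± SD (n = 5) to the right of each group. Cox6b2 spans 1.11 to 2.82 in void and 3.38 to 4.54 in DHT mice, and in both Cox8b and Ttr 1 void mouse reaches the DHT range.

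The start regions of Cox6b1, Cox6b2 and Cox8b are shown because these genes of 1 complex lay far apart in level and in fold change. Each runs from 250 bases before to 50 after the gene's start in RefSeq (GRCm38.p6), on the minus strand of chromosome 7, and matches to searched motifs are in capitals. The windows are chr7:30626065-30626364 for Cox6b1, chr7:4753045-4753344 for Cox6b2 and chr7:140900397-140900696 for Cox8b. The capitals mark an ETS core, on the reverse strand at position -28 from the start, in Cox6b1 and the letters TATAAA at position 5, downstream of the annotated start, in Cox8b. Cox6b2 held none of the searched motifs.
Cox6b1: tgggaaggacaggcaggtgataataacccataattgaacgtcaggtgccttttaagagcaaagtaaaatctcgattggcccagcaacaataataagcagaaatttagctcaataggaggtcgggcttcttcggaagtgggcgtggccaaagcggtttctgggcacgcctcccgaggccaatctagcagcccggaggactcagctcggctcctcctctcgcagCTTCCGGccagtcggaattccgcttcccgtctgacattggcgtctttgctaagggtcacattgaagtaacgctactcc
Cox6b2: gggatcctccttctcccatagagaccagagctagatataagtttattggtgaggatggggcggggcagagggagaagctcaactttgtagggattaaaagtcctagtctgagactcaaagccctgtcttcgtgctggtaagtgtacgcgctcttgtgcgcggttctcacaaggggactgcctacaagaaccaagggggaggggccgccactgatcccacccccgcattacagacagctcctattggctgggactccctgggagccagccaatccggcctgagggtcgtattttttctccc
Cox8b: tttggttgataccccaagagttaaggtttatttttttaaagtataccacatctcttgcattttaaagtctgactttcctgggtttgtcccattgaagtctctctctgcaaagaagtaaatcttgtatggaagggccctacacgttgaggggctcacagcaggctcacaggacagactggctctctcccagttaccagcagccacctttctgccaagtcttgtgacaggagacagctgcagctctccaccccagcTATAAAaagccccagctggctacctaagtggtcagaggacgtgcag

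Such windows were found for 67 of the 83 nuclear members, and 4 motifs were searched on both strands. The core bound by nuclear respiratory factor 1 (GCGCA, any base, then GCGC) was in 25.4% of the members and 5.2% of 27025 genes. The ETS core CCGGAAG, read by GABP among others, was in 23.9% against 9.9%, and the YY1 core AAGATGGC in 13.4% against 3.2%. The TATA motif TATAAA was in 10.4% against 15.7%. Of 4 restricted isoforms with a window, none held the first 3 motifs and 2, Cox7b2 and Cox8b, held TATAAA. These counts describe letters only, and the absence of a match says nothing of a factor.

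Other mitochondrial pathways were followed with gene lists. None of 45 OXPHOS assembly factors was called by edgeR or passed an unadjusted p under 0.05, and their median log2 fold change was 0.00. None of 25 genes of mitochondrial transcription and RNA handling was called (median -0.04; 1 higher and 0 lower at an unadjusted p under 0.05), among them Tfam, which packages and transcribes mitochondrial DNA (-0.01, SE 0.06, adjusted p = 0.940). None of 15 outer membrane and import genes was called or passed the unadjusted threshold (median 0.00). At that threshold 2316 genes were higher and 743 lower in the table as a whole.

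Each of the 4 remaining lists held 1 gene that rose and none that fell, 4 genes in all, beside 5.22% and 0.261% of all genes. At an unadjusted p under 0.05 these lists held 3 higher and 1 lower (electron carriers), 1 and 1 (biogenesis), 2 and 0 (tricarboxylic acid cycle) and 1 and 1 (carriers). Of 8 electron carriers and linked dehydrogenases, Sqor, which passes electrons from sulfide to ubiquinone, rose from 5.33 to 6.86 CPM in void mice to 7.33 to 9.51 in DHT mice (0.50, SE 0.11, adjusted p = 0.0196). Of 16 biogenesis regulators, Nfe2l2, an oxidative stress-responsive transcription factor, was 19.4 to 21.4 CPM in void and 24.9 to 38.0 in DHT mice (0.56, SE 0.11, adjusted p = 0.0133). Both genes' groups lay apart. The call was lost for Sqor without void mouse 10, 11 or 4 or DHT mouse 1 or 3 (adjusted p = 0.0531 to 0.0760), and for Nfe2l2 without void mouse 11 (adjusted p = 0.0529).

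Of 18 genes of the tricarboxylic acid cycle and pyruvate dehydrogenase, Suclg2, a GTP-forming succinyl-CoA ligase subunit, was 17.9 to 22.7 CPM in void and 22.6 to 29.5 in DHT mice (0.37, SE 0.09, adjusted p = 0.0400). That call was lost without any 1 of void mice 10, 11, 4 and 9 or DHT mice 1, 3 and 5 (adjusted p = 0.0677 to 0.150), and also with DESeq2 size factors (0.0640), scaling without the mitochondrial members (0.0626) and no filter beyond 1 count (0.0550). Of 7 ADP/ATP and phosphate carriers, Ucp2, an uncoupling protein of the inner membrane that is strongly expressed in immune cells, was 14.3 to 28.2 CPM in void and 31.0 to 54.7 in DHT mice (1.27, SE 0.20, adjusted p = 0.00761). The 12 microglial markers were 477 to 581 CPM in sum in void and 712 to 1123 in DHT mice, with a median log2 fold change of 0.99. Their part in these 4 genes was not tested. Among genes named by role, Ppargc1a, a coactivator of mitochondrial biogenesis, was at -0.14 (SE 0.05, adjusted p = 0.151). With DESeq2 it was at -0.17 (adjusted p = 0.0421). Nrf1 was at 0.06 (SE 0.06, adjusted p = 0.717). The electron carrier genes Cyc1 and Cycs were at 0.05 (SE 0.12, adjusted p = 0.896) and 0.01 (SE 0.05, adjusted p = 0.981).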

How the data were processed

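Libraries were made with a KAPA mRNA kit from total RNA of 10 hippocampi, 1 per mouse, and sequenced as pairs of reads. The authors trimmed and filtered reads with HTStream, aligned them with STAR 2.7.10b and deposited raw counts per gene. The study's methods name the mm10 build and the submitters' processing notes mm39 and GRCm39. The annotation release, the strand setting and the treatment of reads matching several genes are not given in the sources used here. Without a known strand setting, counts of the 37 members whose exons overlap another gene (29 on the opposite strand) are uncertain.

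For the tests, edgeR 4.0.16 was run under R 4.3.3 on the counts as deposited (filterByExpr by group, TMM, quasi-likelihood test, Benjamini-Hochberg over 17622 genes, called at adjusted p under 0.05). DESeq2 1.42.0 was an alternative. Levels are TMM-normalized CPM, fold changes are DHT against void, and an SE is a standard error on the log2 scale. Symbols, gene types, exon lengths and transcripts came from GENCODE M21 (51948 of 56884 identifiers matched, 51911 with a later version), and copies were searched with blastn 2.17.0. The scripts were tested on simulated counts. Chi-square values between mice of a group were 9.97 to 54.9 per gene; no pair agreed within sampling noise.

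Groups came from the labels. Mice of a group were treated as separate samples. Named members were the mitochondrial genes, those called, the 3 highest and 3 lowest nuclear fold changes, 12 core subunits and the tissue-restricted isoforms. From the other pathway lists, called genes and some chosen by role, such as Tfam, Ppargc1a and Nrf1, were named. Members and lists were chosen with earlier results of these data known. Other models, scalings, filters, thresholds, a choroid plexus covariate and leaving out each mouse were the alternatives.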

Additional observations from a re-analysis of the deposited data

Results flagged for a closer look

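In 5 of 92 groups of 5 mice examined, 1 mouse lay far from the other 4, where chance flags about 1 in 20 groups, or 4.6 of 92. The measure is the gap to the nearest other mouse divided by the range of the group, with a limit of 0.71. For Cox6b2, DHT mouse 1 was the highest of its group at 4.54 CPM (0.756). For Ndufv1, void mouse 9 was the highest at 123 CPM (0.885), and for Ucp2 the same mouse was the highest void mouse at 28.2 CPM (0.760). For Suclg2, void mouse 5 was the highest void mouse at 22.7 CPM (0.866). For Nrf1, DHT mouse 6 was the highest DHT mouse at 16.1 CPM (0.756).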

How the results depend on the processing

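At most 4 OXPHOS members were called higher in the fits with 1 mouse left out, and none was called lower in any alternative run. The count of members higher, all of them nuclear, was 1 in the main analysis, 17 with scaling on neuron genes, 2 with no filter, 9 at an unadjusted p under 0.05 and 0 with the choroid plexus covariate. It ranged from 0 (without void mouse 10, void mouse 11 or DHT mouse 1) to 4 (without void mouse 9). The covariate fit called no gene of 17622. The summed choroid plexus level separates the groups, so treatment and that level cannot be told apart in this fit. The causes of these changes in count were not tested. DESeq2 called 1221 genes higher and 224 lower in all, with 1 member higher. The median log2 fold change moved to 0.28 for mitochondrial members with the covariate and to 0.22 for nuclear members with scaling on neuron genes, and the mitochondrial minus nuclear median to 0.22 with the covariate. Relative to all genes, the nuclear median stayed at 0.04 to 0.09 above in every setting run. The mitochondrial median relative to all genes was -0.11 in the main analysis and 0.27 with the covariate. With scaling on neuron genes, which moved the median of all genes from 0.01 to 0.15, it was -0.09. With 1 mouse left out it ranged from -0.19 (without void mouse 9) to -0.03 (without void mouse 5). With DESeq2, log2 fold changes turned to -0.0069 (Cox5a) and -0.023 (mt-Co2). With DESeq2 size factors in edgeR, log2 fold changes turned to -0.0066 (Cox5a) and -0.024 (mt-Co2). With at least 10 counts required in every library, log2 fold changes turned to 0.0006 (Ndufs1). With the choroid plexus covariate, log2 fold changes turned to -0.012 (Cox5a), 0.39 (Cox6a2), 0.39 (mt-Atp6), 0.25 (mt-Co1), 0.91 (mt-Co3), 0.28 (mt-Cytb), 0.34 (mt-Nd1), 0.28 (mt-Nd2), 0.26 (mt-Nd4), 0.36 (mt-Nd5), 0.027 (Ndufb3), -0.039 (Ndufv1), 0.0064 (Sdha), 0.014 (Tfam) and -0.030 (Uqcrc1). With library size alone, log2 fold changes turned to 0.0066 (Ndufa9) and 0.0084 (Ndufs1). With no filter beyond 1 count, log2 fold changes turned to -0.0089 (mt-Co2). With scaling on neuron genes, log2 fold changes turned to 0.064 (Cox6a2), 0.079 (mt-Co1), 0.057 (mt-Cytb), 0.11 (mt-Nd1), 0.055 (mt-Nd2), 0.041 (mt-Nd4), 0.11 (mt-Nd5), 0.13 (Ndufa9), 0.11 (Ndufb3), 0.14 (Ndufs1), 0.12 (Sdha), 0.13 (Tfam) and 0.10 (Uqcrc2). With scaling that left out the mitochondrial members, log2 fold changes turned to -0.011 (Cox5a) and -0.029 (mt-Co2). With 1 mouse left out, signs turned within these ranges: -0.029 to 0.057 (Atp5a1), -0.027 to 0.055 (Atp5b), -0.041 to 0.040 (Cox5a), -0.24 to 0.057 (Cox6a2), -0.013 to 0.078 (Cox6c), -0.34 to 0.053 (mt-Atp6), -0.16 to 0.0087 (mt-Co1), -0.11 to 0.098 (mt-Co2), -0.37 to 0.044 (mt-Co3), -0.16 to 0.050 (mt-Nd1), -0.14 to 0.039 (mt-Nd5), -0.060 to 0.0072 (Ndufa9), -0.078 to 0.0083 (Ndufb3), -0.043 to 0.022 (Ndufs1), -0.066 to 0.081 (Ndufv1), -0.038 to 0.063 (Sdhb), -0.060 to 0.018 (Tfam), -0.029 to 0.15 (Uqcrc1) and -0.014 to 0.067 (Uqcrfs1). The cause of these turns was not tested. Of 856 values of named genes over the alternatives, 736 kept their direction and side of the threshold. No paired analysis was possible because 5 is the only replicate number found in both groups, and the labels give no cohort or litter. Depth limits the restricted isoforms and the poorly counted mitochondrial genes, whose standard errors reached 0.83.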
